A study of Xenopus laevis with 6 samples.

Results

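The genes described here encode proteins of the mitochondrial ribosome, and they were taken as the probe sets whose platform gene symbol begins with mrpl or mrps followed by a digit. This rule found 52 of the 11302 genes that the annotation ties to a probe set, with 59 of the 32634 probe sets of the array. Of these probe sets, 34 belong to the large subunit (mrpl, 32 genes) and 25 to the small subunit (mrps, 20 genes). The RNA came from dorsal pieces of Xenopus laevis frog gastrulae at stage 10.5, a time at which the blastopore has begun to form dorsally. At the 4-cell stage each of the 2 dorsal blastomeres had received 10 ng of a morpholino (MO, an antisense oligonucleotide that blocks translation or splicing) against apcdd1, or of a control MO. Apcdd1 sits in the cell membrane and is known to inhibit Wnt and BMP signalling. Each of the 3 control and 3 depleted arrays was hybridised with RNA from a batch of 10 embryos kept at 16 degrees C. The labels name no strain, line or clutch for either group. The treatment text of the control samples names the apcdd1 MO as well, and the grouping follows their genotype label. A ventral dye mark was given to depleted embryos alone, because the lip was late in some of them, and this step cannot be told apart from the group.

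Mitochondria keep a small genome that encodes core subunits of the respiratory chain and the ribosomal RNAs needed to translate them. All proteins of the mitochondrial ribosome are encoded in the nucleus, made in the cytosol and imported. The large subunit holds the peptidyl transferase centre, and the small subunit binds the messenger RNA and decodes it. Some of these proteins descend from bacterial ribosomal proteins and others are found only in mitochondria. A Xenopus egg carries a large maternal stock of mitochondria, which is shared out among the cells of the early embryo.

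The values are the deposited signal intensities on a linear scale. Their log2 values were compared with limma, a linear model that draws each probe set's variance towards the variance typical of its signal. A change was called at a Benjamini-Hochberg adjusted p under 0.05 over all 19523 probe sets bright enough to be tested. Signals of different probe sets depend on their probes, so levels are compared between arrays and not between genes. Arrays within a group correlated at 0.987 to 0.996 and arrays of different groups at 0.984 to 0.988, across the tested probe sets. Median signals ran from 44.4 to 45.7. For gapdh, the ratio of the 3' to the 5' control signal, which rises as RNA degrades, averaged 1.77 ± 0.03 over control and 1.87 ± 0.07 over depleted arrays (SD, n = 3). The groups did not overlap, and the part of this ratio in the results was not tested. The apcdd1.L probe set read 314, 300 and 310 in control arrays 1 to 3 and 229, 252 and 258 in depleted arrays, all lower. Its log2 change was -0.33 ± 0.07 (SE; limma adjusted p = 0.027), and the call was lost when control 2 (adjusted p = 0.095), control 1 (0.064) or any depleted array (0.060 to 0.079) was left out. RNA level does not measure what a morpholino does to translation or splicing.

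The tissue was checked with short lists of dorsal and ventral genes. All 16 tested genes of the organizer, the dorsal signalling centre, had negative log2 changes, and 4 of them fell (chrd.1.S, otx2.S, admp.S and frzb.L). Of 11 tested ventral genes, 3 rose (ventx1.2.S, ventx2.1.S and ventx2.1.L) and 0 fell, but 5 of the 11 had log2 changes above 0 and the median was -0.01. bmp4.S, for a ventral signalling protein, had a log2 change of -0.36 ± 0.14 (SE; limma adjusted p = 0.21), and szl.S read only 26.0 ± 9.97 and 20.7 ± 0.69. The organizer list had a median log2 change of -0.18. Of its 16 tested genes 12 were not called, and the groups did not overlap in 6. Over all tested probe sets 6.59% were called and 24.7% did not overlap. The part of the organizer list in the results was not tested. In bulk pieces of embryo, fewer cells of a type and less RNA per cell cannot be told apart.

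Of the 59 member probe sets, 55 passed the filter on dim values, which stands at a mean signal of 22.2. Of the 55, 2 rose and 2 fell, while 51 did not pass. That is 7.27%, against 6.59% of all tested probe sets (2.99% higher and 3.6% lower), so the share called is near the background. With each probe set's own variance in place of the one drawn towards the typical variance, 0 members were called, where 1.00% of all probe sets were. In that fit 13 of the 55 members had an unadjusted p under 0.05 in limma's linear model. The share over all probe sets was not counted, so this count cannot be set against a background. Weights for arrays gave 16 calls, 29.1% of the members, where 22.7% of all probe sets were called. At an unadjusted p under 0.05 the main limma fit gave 10 of 55 (18.2%), against 19% of all tested. The median log2 change was 0.00 over the members and 0.00 over all tested probe sets, with 27 members above 0 and 28 below. The middle portion of the members lay between -0.09 and 0.09, and that of all tested probe sets between -0.10 and 0.10 (25th and 75th percentiles). The groups did not overlap in 16 members, 9 higher and 7 lower in depleted arrays, which is 29.1% against a background of 24.7% (11.9% higher and 12.8% lower).

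**Figure D1:**
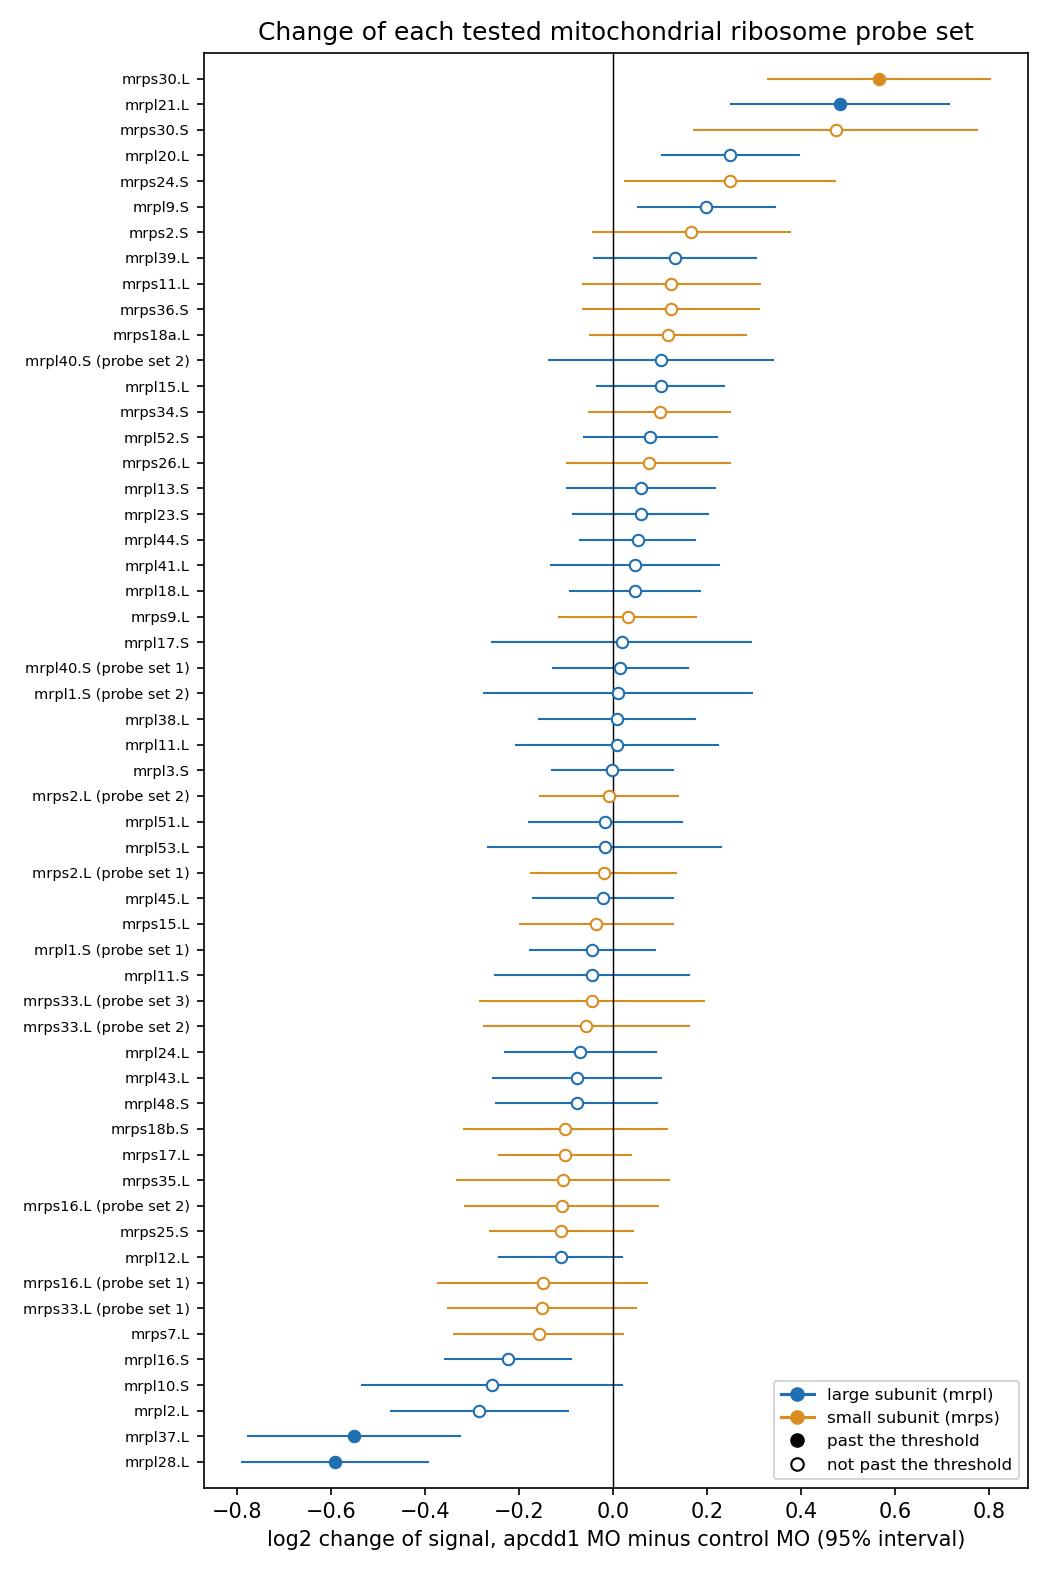
Log2 change of signal (apcdd1 MO minus control MO, x axis) of each of the 55 tested mitochondrial ribosome probe sets, with its 95% interval from limma. Blue marks the large and orange the small subunit, and filled points passed the threshold. The changes run from -0.59 for mrpl28.L to 0.57 for mrps30.L, and 45 of the 55 lie within 0.2 of 0 on the log2 scale.

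The intervals bound the changes of the members, with bounds chosen after the values were seen. The 95% intervals of all 51 members that were not called lay inside a 2-fold change in either direction. For 50 of them the interval lay inside a 1.5-fold change as well, the exception being mrps30.S. A narrower bound of 1.2-fold held for 26 of the 51. The 51 were picked for not passing the same fit, which favours intervals near 0. The share over all uncalled probe sets is not given here, so the bounds do not set the members apart. The signals had a median coefficient of variation between arrays of 5.20% in control and 5.38% in depleted embryos, against 6.77% and 6.51% over all tested probe sets. The members were brighter, with a median signal of 284 against 159, and probe sets of like signal were not compared. The mean log2 signal of the 55 members averaged 7.96 ± 0.02 over control and 7.97 ± 0.00 over depleted arrays (SD, n = 3). Their summed signal ran from 20732 to 21331 over the 6 arrays, with overlap between groups.

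In the large subunit, mrpl28.L and mrpl37.L fell and mrpl21.L rose. mrpl28.L encodes a counterpart of bacterial ribosomal protein L28. It read 336, 345 and 329 in control arrays 1 to 3, and 246, 197 and 229 in depleted arrays 1 to 3. Every depleted array lay below every control array, and the mean went from 337 ± 8.20 to 224 ± 24.7 (SD, n = 3). This is 1.51-fold lower, a log2 change of -0.59 ± 0.09 (SE; limma adjusted p = 0.0036).

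mrpl37.L encodes a protein that mitochondrial ribosomes have and bacterial ribosomes lack. Its signals were 181, 184 and 171 in control arrays and 105, 131 and 132 in depleted arrays. The groups do not overlap, and depleted array 1 is the lowest. The log2 change was -0.55 ± 0.10 (SE; limma adjusted p = 0.010). The call was lost when control 2 was left out (adjusted p = 0.060).

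mrpl21.L, a counterpart of bacterial L21, went the other way. It read 82.8, 71.1 and 89.3 in control arrays and 117, 116 and 105 in depleted arrays. All depleted arrays were higher, by a log2 change of 0.48 ± 0.10 (SE), or 1.40-fold (limma adjusted p = 0.023). The call was lost when control 2 (adjusted p = 0.10) or depleted array 1, 2 or 3 (0.079, 0.086 and 0.051) was left out. Its adjusted p was 0.011 without control 3.

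Other members of the large subunit stood near the threshold. mrpl20.L, a counterpart of a bacterial assembly protein, read 388, 389 and 389 in control and 464, 439 and 484 in depleted arrays. The depleted arrays were all higher, but the log2 change of 0.25 ± 0.06 (SE) did not pass (limma adjusted p = 0.052). mrpl16.S, whose bacterial counterpart helps form the tRNA binding sites, read 1325, 1209 and 1194 in control and 1065, 1041 and 1083 in depleted arrays. It lay lower in every depleted array, with a log2 change of -0.22 ± 0.06 (SE; limma adjusted p = 0.058). mrpl2.L, whose bacterial counterpart lies near the peptidyl transferase centre, went from 123 ± 5.75 to 101 ± 5.98 without overlap and did not pass (limma adjusted p = 0.083). mrpl9.S went from 540 ± 25.5 to 619 ± 24.4, also without overlap (limma adjusted p = 0.12).

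**Figure D2:**
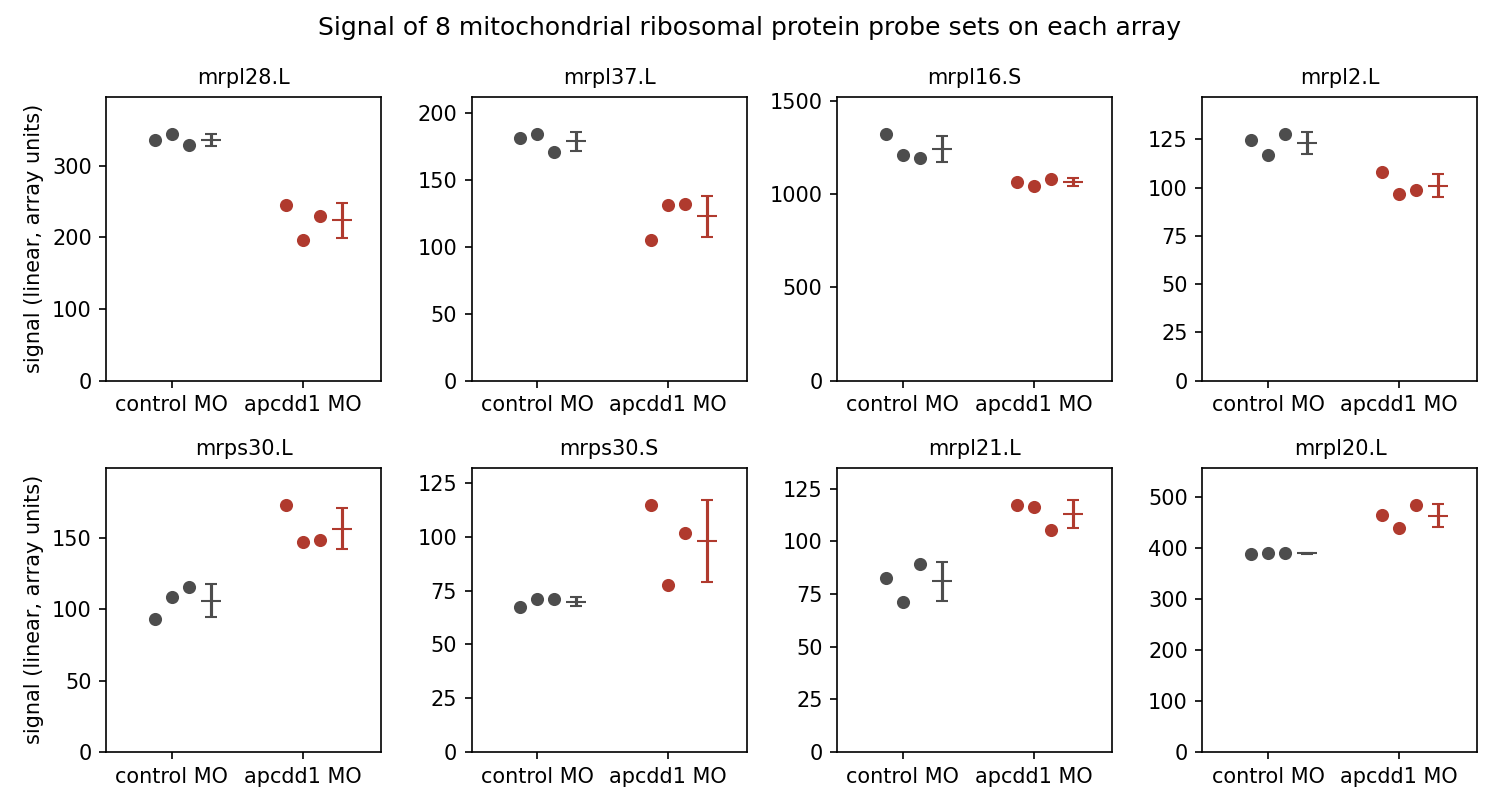
Signal on the linear scale (y axis, from 0, scaled separately in each panel) of 8 member probe sets on the 3 control (grey) and 3 depleted (red) arrays, with the mean and SD beside the points. In each panel the groups do not overlap: mrpl28.L, mrpl37.L, mrpl16.S and mrpl2.L are lower and mrps30.L, mrps30.S, mrpl21.L and mrpl20.L higher in depleted embryos, while only mrpl28.L, mrpl37.L, mrps30.L and mrpl21.L passed the test.

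Other large subunit proteins with strong signals differed little between the groups. mrpl44.S, which carries a fold like that of ribonuclease III, averaged 1513 ± 58.9 over control and 1568 ± 47.0 over depleted arrays (SD, n = 3). mrpl18.L, a relative of the bacterial protein that binds 5S RNA, read 1405 ± 18.0 and 1453 ± 101. mrpl3.S, an early-assembling core protein in bacteria, read 940 ± 36.8 and 939 ± 22.7. Their log2 changes were 0.05 ± 0.05, 0.05 ± 0.06 and 0.00 ± 0.06 (SE), each with an interval inside ± 0.19. mrpl12.L, the stalk protein that recruits translation factors, went from 811 ± 35.8 to 749 ± 6.33, lower in every depleted array. It did not pass (log2 change -0.11 ± 0.06 SE, limma adjusted p = 0.35). Its partner at the base of the stalk, mrpl10.S, read near the filter, 25.4 ± 1.69 and 21.3 ± 2.83, and did not pass (limma adjusted p = 0.30).

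The rest of the large subunit gave no call. mrpl15.L read 550, 543 and 566 in control and 582, 617 and 579 in depleted arrays. mrpl52.S read 409, 392 and 408 in control and 424, 413 and 441 in depleted arrays. These were higher in every depleted array, with log2 changes of 0.10 ± 0.06 and 0.08 ± 0.06 (SE; limma adjusted p = 0.42 and 0.57). In the others the groups overlapped. Their log2 changes ran from -0.08 for mrpl48.S and mrpl43.L, through -0.07 for mrpl24.L, -0.02 for mrpl45.L, mrpl51.L and mrpl53.L, 0.01 for mrpl38.L and 0.02 for mrpl17.S, up to 0.06 for mrpl13.S and mrpl23.S and 0.13 for mrpl39.L. mrpl53.L and mrpl17.S, at 29.6 ± 2.04 and 40.9 ± 0.94 in control arrays (SD, n = 3), were dim and had wider errors (SE 0.11 and 0.12).

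Among the genes named for the small subunit, only mrps30.L passed, and it rose. It read 93.4, 109 and 116 in control arrays 1 to 3 and 173, 147 and 149 in depleted arrays. Each depleted array lay above each control array, a rise of 1.48-fold or a log2 change of 0.57 ± 0.11 (SE; limma adjusted p = 0.011). The mrps30 protein was first described as a programmed cell death protein, and structures of mammalian mitochondrial ribosomes place it in the large subunit despite its name. The same structures place mrps18a there, and mrps36 has been reassigned to a metabolic enzyme complex.

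The other small subunit genes gave no call in either direction. mrps24.S had a log2 change of 0.25 ± 0.10 (SE), from 187 ± 21.9 to 221 ± 17.0 with overlap (limma adjusted p = 0.21). mrps7.L, a counterpart of the bacterial protein that nucleates the head of the subunit, read 114, 124 and 116 in control and 108, 101 and 108 in depleted arrays. It was lower in every depleted array without passing (log2 change -0.16 ± 0.08 SE, limma adjusted p = 0.33). mrps17.L went from 1048 ± 69.1 to 975 ± 12.3, mrps26.L from 919 ± 58.2 to 969 ± 82.5, mrps18a.L from 755 ± 55.7 to 817 ± 49.3 and mrps9.L from 510 ± 24.1 to 521 ± 17.0 (SD, n = 3). The groups overlap in each of these. mrps11.L read 76.9, 77.8 and 80.4 in control and 81.1, 90.3 and 84.9 in depleted arrays, and mrps34.S was at 251, 260 and 248 against 261, 272 and 279. Both were higher in every depleted array without passing (log2 change 0.12 ± 0.08 and 0.10 ± 0.07 SE, limma adjusted p = 0.49 for each). The log2 changes of mrps36.S (0.12), mrps15.L (-0.04), mrps18b.S (-0.10) and mrps25.S (-0.11) did not pass either. mrps35.L, the dimmest tested member of the small subunit, read 58.0 ± 4.10 and 53.9 ± 4.36.

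No gene with several tested probe sets had a call on any of them. The 3 probe sets of mrps33.L, a protein specific to mitochondria, had log2 changes of -0.15 ± 0.09, -0.05 ± 0.11 and -0.06 ± 0.10 (SE). The pairs of probe sets of mrpl1.S (-0.04 and 0.01), mrpl40.S (0.02 and 0.10), mrps16.L (-0.15 and -0.11) and mrps2.L (-0.01 and -0.02) lay close together. With each gene at its brightest probe set, 2 of 49 genes rose, 2 fell and the median log2 change was 0.01.

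The large subunit was compared with the small. By symbol, of 32 tested large subunit probe sets 1 rose and 2 fell, and of 23 small subunit probe sets 1 rose and 0 fell. The call in the small subunit is mrps30.L, which the structures place in the large. With mrps30 and mrps18a counted in the large subunit and mrps36 left out, 2 of 35 large subunit probe sets rose and 2 fell. Of 19 small subunit probe sets 0 were then called, where 6.59% of all tested probe sets were. The median log2 change was 0.01 for the large and -0.02 for the small subunit, while the means were -0.02 and 0.04, so median and mean differ in sign for both. On each array, the mean log2 signal of the large subunit minus that of the small was 0.41, 0.41 and 0.40 in control and 0.32, 0.37 and 0.35 in depleted arrays. The groups do not overlap, and the difference between them was -0.06. The size of this difference depended on the called members and its sign on the naming. The called members were picked by the same comparison, so leaving them out is no independent check. Without the 4 called members it was -0.02 with overlap, and with mrps30 and mrps18a counted in the large subunit and mrps36 left out it was 0.03, in the opposite direction and again without overlap (0.32 to 0.34 in control and 0.35 to 0.38 in depleted arrays).

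**Figure D3:**
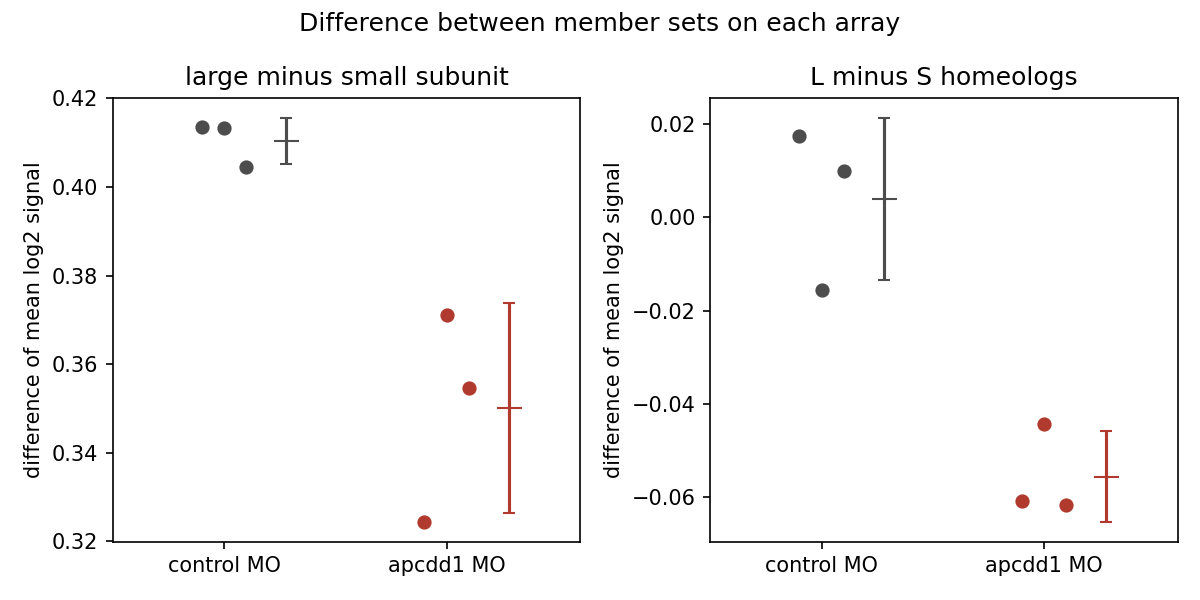
Mean log2 signal of the large minus the small subunit probe sets (left) and of the L minus the S homeolog probe sets (right), on each control (grey) and depleted (red) array, with mean and SD beside the points; the y axes do not start at 0. The left panel runs from 0.40 to 0.41 in control and 0.32 to 0.37 in depleted arrays, and the right from -0.02 to 0.02 and from -0.06 to -0.04.

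Xenopus laevis is an allotetraploid, so many genes exist as homeologs, copies on the long and the short chromosomes that the symbols tell apart by .L and .S. Of the tested members 33 probe sets are of L and 22 of S homeologs. All 4 calls fell on L homeologs, 2 higher and 2 lower, against 0 of 22 on S homeologs. Of those 22, 4 (18.2%) had an unadjusted p under 0.05 in limma, against 20.05% of all tested S probe sets. Over all tested probe sets with these endings, 7.26% of L and 6.50% of S were called. The median log2 change of the members was -0.02 for L and 0.03 for S homeologs, against -0.0019 and 0.0007 over all tested probe sets with these endings. The per-array mean of L minus that of S was 0.02, -0.02 and 0.01 in control and -0.06, -0.04 and -0.06 in depleted arrays, without overlap. The difference between the groups was -0.06 with and without the called members. As these are all L homeologs, 2 higher and 2 lower by similar amounts, leaving them out could move it little. The L and S sets hold mostly different genes, so the difference compares lists of probe sets and not copies of the same gene. It was not computed over all probe sets with these endings.

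Homeologs of the same gene could be set against each other for few members. The array holds both copies of 4 of them, and mrpl11, mrps2 and mrps30 had both copies tested. Unequal change was tested on the difference log2 L minus log2 S of each array, over all 1386 gene pairs of the table, of which 12.6% were called. Of the 3 member pairs 0 were called in limma, and 0 had an unadjusted p under 0.05. The groups overlapped in all 3, against 31.5% of all pairs without overlap.

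mrps30 is the pair whose copies went the same way. mrps30.S read 67.4, 70.9 and 71.1 in control and 115, 77.6 and 102 in depleted arrays, all higher, with depleted array 2 close to the controls. Its log2 change was 0.47 ± 0.13 (SE; limma adjusted p = 0.073), beside 0.57 ± 0.11 for mrps30.L. Without depleted array 2 the change of mrps30.S was 0.63 and passed (limma adjusted p = 0.013), and without each of the other arrays it did not (0.086 to 0.23). The L copy changed by 0.09 ± 0.13 more than the S copy (SE; 95% interval -0.19 to 0.37, limma adjusted p = 0.70). For mrps2, a protein of the platform region in bacteria, the L copy had a log2 change of -0.01 ± 0.07 and the S copy of 0.17 ± 0.09. Their difference was -0.17 ± 0.08 (SE; interval -0.36 to 0.01, limma adjusted p = 0.22). For mrpl11, part of the stalk base, the difference was 0.05 ± 0.11 (SE; interval -0.19 to 0.29, limma adjusted p = 0.81). Probe sequences were not used here, so the extent to which a probe set reads the other copy was not tested.

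**Figure D4:**
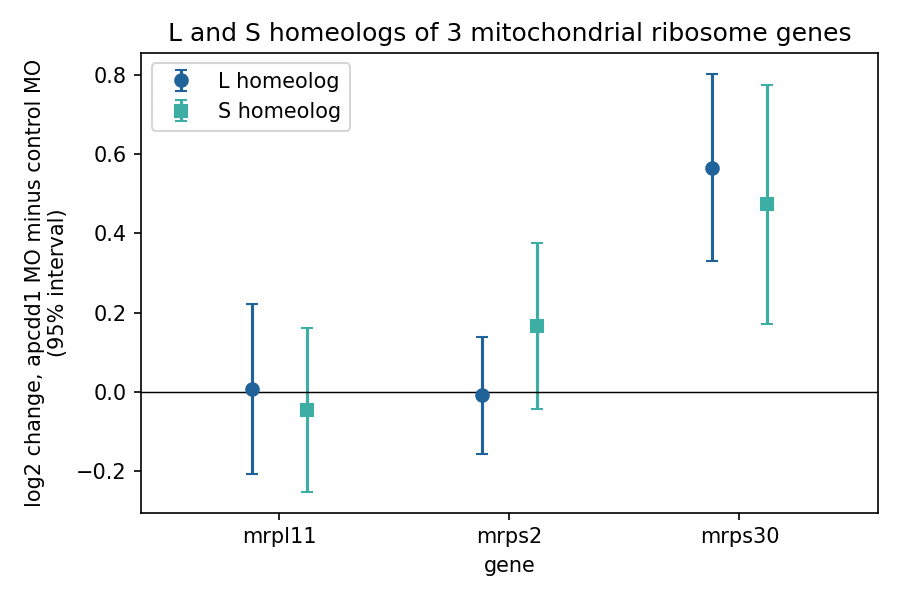
Log2 change of signal (apcdd1 MO minus control MO, y axis) of the L copy (circles) and the S copy (squares) of mrpl11, mrps2 and mrps30, with 95% intervals from limma. Both copies of mrps30 lie above 0, at 0.57 and 0.47, and the intervals of L and S overlap for each gene.

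Other nuclear genes were described from 6 short lists. These cover mitochondrial translation, ribosome assembly with proteases, mitochondrial DNA and RNA, and transcription regulators. Of their 108 entries 53 had a probe set under that name, and 49 genes, counting homeologs, were tested. Of the 49, 0 rose, 3 fell and 46 did not pass, which is 6.12% against the background of 6.59%. In either direction, 8 of the 49 had an unadjusted p under 0.05 in limma, against 19% of all tested probe sets. The median log2 change was -0.01.

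Of the proteins of the ribosome itself that carry other names, 2 genes were tested and ptcd3.L fell. Its product is an RNA-binding protein of the small subunit in mammals. It read 79.4, 85.4 and 79.4 in control and 56.1, 56.3 and 65.7 in depleted arrays, all lower, with a log2 change of -0.46 ± 0.10 (SE; limma adjusted p = 0.020). The call was lost when control 2 (adjusted p = 0.11), depleted array 1 (0.068) or depleted array 2 (0.078) was left out. chchd1.L, the other, read 1131 ± 45.6 and 1141 ± 15.4.

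In a list of genes for the charging of mitochondrial tRNAs, 1 of 10 fell and 0 rose. The list includes both homeologs of gars1 and kars1, and qrsl1.L, and was not limited to enzymes that serve mitochondria alone. lars2.L, the mitochondrial leucyl-tRNA synthetase gene, read 348, 349 and 366 in control and 233, 238 and 224 in depleted arrays. The groups lie far apart relative to their spread, with a log2 change of -0.61 ± 0.07 (SE; limma adjusted p = 5.7e-04). Among genes of mitochondrial transcription and RNA processing, 1 of 10 fell and 0 rose. fastkd1.L, whose product binds mitochondrial RNA in mammals, read 188, 185 and 188 in control and 101, 70.9 and 108 in depleted arrays. Every depleted array was lower, by 2.04-fold (log2 change -1.03 ± 0.14 SE, limma adjusted p = 0.0028). The calls of fastkd1.L and ptcd3.L were lost with each probe set's own variance (adjusted p = 0.12 for each). The single-stranded DNA binding protein gene ssbp1.S went from 266 ± 25.2 to 320 ± 21.8 and did not pass (limma adjusted p = 0.12). tfam.L and polrmt.L, the packaging factor and the RNA polymerase of mitochondrial DNA, had log2 changes of -0.01 ± 0.06 and -0.02 ± 0.07 (SE).

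**Figure D5:**
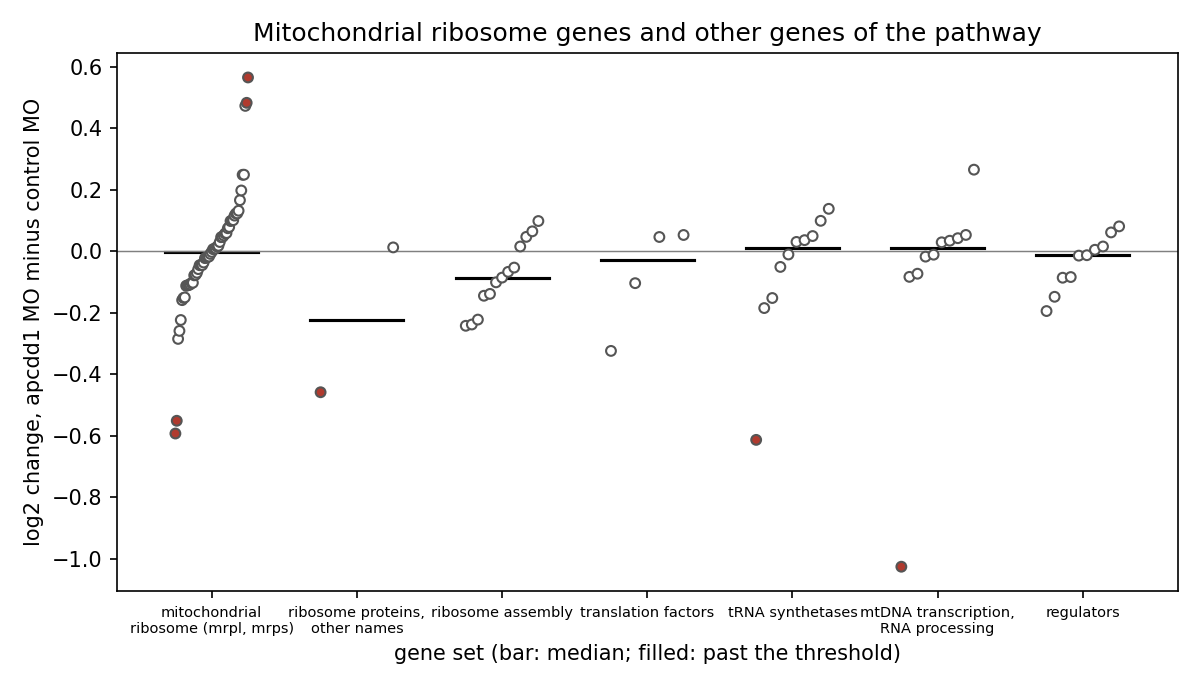
Log2 change of signal (apcdd1 MO minus control MO, y axis) of the 55 tested mitochondrial ribosome probe sets and of the tested genes of 6 lists. The lists cover mitochondrial gene expression, with proteases, and transcription regulators. A bar marks each median, and filled points mark changes past the threshold. The filled points are mrpl28.L, mrpl37.L, mrpl21.L and mrps30.L among the members and ptcd3.L, lars2.L and fastkd1.L, all lower, among the lists.

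The remaining lists held no call. A list held factors of ribosome assembly and ribosomal RNA modification together with mitochondrial proteases. Of its 13 tested genes 0 rose and 0 fell in limma, with a median log2 change of -0.09. The listed gene with the lowest p was ddx1.L (-0.22 ± 0.09 SE, limma adjusted p = 0.19), whose role in mitochondria was not checked here. Of 4 translation factors 0 were called. gfm1.L, a mitochondrial elongation factor gene, read 239, 260 and 286 in control and 212, 198 and 216 in depleted arrays, all lower (log2 change -0.32 ± 0.08 SE, limma adjusted p = 0.052). Of 10 genes for regulators known from mammals 0 were called, and nrf1.S, a transcription factor gene, had the lowest p (log2 change -0.19 ± 0.07 SE, limma adjusted p = 0.15).

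The 4 member probe sets left out as dim were those of mrpl32.L, mrpl41.S and mrps12.L and a probe set of mrps9.L. They read between 7.60 and 13.2 over all arrays. In the fit without the filter, the adjusted p of the 4 ran from 0.16 for mrpl41.S to 0.93. mrpl41.S read 10.1, 9.16 and 8.52 in control and 11.5, 11.0 and 11.3 in depleted arrays, without overlap and near the low end of the array. Its homeolog mrpl41.L was bright enough to be tested and did not pass (log2 change 0.05 ± 0.08 SE, limma adjusted p = 0.83).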

How the data were processed

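Affymetrix arrays measured RNA of 6 samples, 3 per group. The deposited values are intensities per probe set, on a linear scale. The submitters' processing notes give MAS5 as the tool without its version, and how arrays were scaled is not given in the sources used here. From these values log2 was taken after raising signals to at least 1, which moved 0 values. The 96 probe sets marked AFFX and the 13015 below the 40th percentile of the mean log2 signal (4.47) were left out. Groups follow the genotype label. limma 3.58.1 in R 4.3.3 compared them two-sided (lmFit, then a trended and robust eBayes), and p-values were adjusted by Benjamini-Hochberg over all tested probe sets. Intervals are 95% and leave out multiple testing. Homeolog pairs, each copy at its brightest tested probe set, were fitted the same way on log2 L minus log2 S. Of the array's probe sets 15504 carry 1 symbol, 279 several and 16851 none here. All 59 members kept their symbol in the RefSeq table of Xenopus_laevis_v10.1, which lists 94 genes that match the rule. No genome or sequence table was used.

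The members and lists were chosen with earlier results of these data known. Named are apcdd1, the 12 members with the lowest p (fewer than 12 were called), the 5 strongest and the weakest signal in each subunit, tested homeolog pairs, genes with 3 or more tested probe sets and, per list, called genes (up to 4) or that with the lowest p; other names were chosen after their values were seen. In simulated data for this comparison (19523 probe sets, 200 changed), 69% of 1.5-fold and 89% of 2-fold changes were recovered, and 4.24% of calls were false. The simulated noise was drawn independently for each probe set, and fewer probe sets were changed than the 1287 called in the data. These shares therefore do not measure recovery or false calls in the data. For pairs (1386, of which 60 changed), 93.3% of 2-fold changes were recovered. Smaller unequal changes, such as those of the member pairs, were not simulated. The number of arrays limits the precision. Whether the batches stem from separate clutches is not in the labels, and the p-values then reflect only the spread among these batches, which may be technical. Alternatives were median centring, quantile normalization, 16 added before log2, other filters, a plain eBayes, weights for arrays, a block for the replicate number, and each array left out. Also leaving out reporter probe sets, and using each probe set's own variance, were added after seeing the data. The fold bounds set against the intervals were chosen then too.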

Additional observations from a re-analysis of the deposited data

How the results depend on the processing

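The count of 4 called members was 4 or 5 with median centring, quantile normalization, 16 added before log2 and a plain eBayes. It was also 4 or 5 with no filter, with a filter at the 60th percentile, and without reporter probe sets. Across these runs the share called over all probe sets ran from 3.76% with no filter to 7.27% with the filter at the 60th percentile. The share of members was 6.78% of 59 with no filter and 11.1% of 45 with the filter at the 60th percentile. Array weights gave 16 calls (29.1% of the members), 7 higher and 9 lower, where 22.7% of all probe sets were called. Each probe set's own variance gave 0, where 1.00% were. Leaving out single arrays gave 2 to 5, with 2 without control 2, when 3.43% of all probe sets were called. That share ran up to 7.32%, without control 3, when 5 members were called. mrpl28.L and mrps30.L passed without each array in turn (limma adjusted p = 0.0050 to 0.028 and 0.0065 to 0.048). With own variance no call of a member or of ptcd3.L, fastkd1.L or apcdd1.L held (0.10 to 0.16), and lars2.L passed (0.028). The members' median log2 change was 0.023 with array weights, where the median over all tested probe sets was -0.011. The difference of the medians of large and small subunit, 0.03, was -0.019 with array weights, -0.028 with 1 probe set per gene, and -0.018 to 0.045 when single arrays were left out. No homeolog pair of the members was called under any alternative run. The log2 change of apcdd1.L ran from -0.36 to -0.27 when single arrays were left out, and was -0.33 with own variance (adjusted p = 0.11). Deviations of same-numbered arrays correlated at 0.05, 0.02 and -0.27 across probe sets, and those of differently numbered arrays at -0.24 to 0.21. No pairing by replicate number was seen, and the labels do not state whether the arrays are paired. With the replicate block 4 members were called, the main 4, where 5.64% of all probe sets were called. In that fit apcdd1.L had a log2 change of -0.33 (limma adjusted p = 0.061). Causes of these changes were not tested. Signals under 22.2 were not shown to be above background.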

Other observations

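The array also carries 14 probe sets whose identifiers contain the word Mitochon and which the annotation leaves without a gene, so what they read is not settled here. Of these, 11 were tested, 0 were called in limma and 1 had an unadjusted p under 0.05, against 19% of all tested probe sets. The median log2 change of the 11 was 0.02, with 8 above 0. The strongest, Xl2Mitochon.7.1.S1_at, averaged 18178 ± 429 over control and 17978 ± 296 over depleted arrays (SD, n = 3), with overlap. Xl2Mitochon.5.1.S1_at was the probe set with an unadjusted p under 0.05, with a log2 change of 0.15 ± 0.06 (SE; limma adjusted p = 0.21), and its groups did not overlap.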
